A study of Mus musculus with 10 samples.

Results

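The genes of sterol synthesis and of the sterol regulatory element-binding proteins (SREBPs) were followed as 1 group in ILK-deficient and ILK-expressing mouse epidermis. The group was a list of 28 gene symbols, matched by name, and it was drawn up with earlier results of these arrays known. It holds 19 enzymes of sterol synthesis, 5 genes of the SREBP system, 3 enzymes of fatty acid synthesis and the sterol carrier Stard4. Of the 28, 27 had a probe set that carried their symbol alone, and all 27 reached the expression level required for testing. They stand among 19938 genes with such a probe set, of which 18121 were tested. Acat2, an enzyme that condenses acetyl-CoA units, had no such probe set and was not analysed here.

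RNA came from epidermis that had been freed from the dermis of 3-day-old mice with dispase. ILK-deficient mice (K14Cre; Ilk f/f) were homozygous for the floxed Ilk allele, and ILK-expressing mice (K14Cre; Ilk f/+) were heterozygous for it. All carried the KRT14-cre transgene, in which the keratin 14 promoter drives Cre in basal keratinocytes and their descendants, so the comparison lacks mice without Cre or with both Ilk alleles intact. There were 5 mice of each genotype, each on its own GeneChip Mouse Gene ST array, with n = 5 per genotype throughout. Ilk encodes a scaffold protein of integrin adhesions, and its probe set, which pools all exons, averaged 8.94 ± 0.118 (SD) in ILK-deficient and 9.17 ± 0.181 in ILK-expressing epidermis on the log2 scale (difference -0.23, adjusted p = 0.253 from limma). The pooled value therefore checks the genotype labels little.

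Values are log2 expression values, and a difference is ILK-deficient minus ILK-expressing, so that a difference below 0 means less transcript in ILK-deficient epidermis. Each adjusted p is limma's, corrected by Benjamini-Hochberg across the 32046 tested probe sets, and a gene was called where it was under 0.05. By this rule 1211 probe sets were called in either direction, 3.78% of those tested. An exact two-sided permutation test over the 5 and 5 arrays accompanies some genes, and its smallest possible p, reached when the genotypes are fully separated, is 0.00794. In bulk tissue, fewer cells of a type and less RNA per cell cannot be told apart.

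Cholesterol is built from acetyl-CoA through mevalonate, isoprenoid units and squalene, which is then closed into a ring and trimmed by a chain of membrane enzymes. When sterols run low, the escort protein Scap carries SREBP precursors from the endoplasmic reticulum to the Golgi, where proteases release the part that enters the nucleus and raises transcription of these enzymes. When sterols are plentiful, the Insig proteins hold Scap back. Epidermis relies on its own synthesis of cholesterol, fatty acids and ceramides for the lipid layers of the permeability barrier, and sebaceous glands are a further site of lipid synthesis in skin.

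SREBPs act at short promoter elements, usually next to sites of the factors NF-Y and Sp1, and 4 promoters are printed here to show how differently the members' promoters carry these elements. Each window runs from 250 bases before the annotated start to 50 bases after it, on the plus strand, and comes from RefSeq on GRCm38.p6. Capitals mark the core of the sterol response element, TCACNCCAC, and the NF-Y box, CCAAT, on either strand, so that an NF-Y box on the other strand reads ATTGG. Hmgcs1 (chr13:119690101-119690400) is shown because it alone held the sterol response element core. Idi1 (chr13:8885356-8885655) and Mvk (chr5:114444019-114444318) are shown because their expression did not overlap between the genotypes. Scap (chr9:110333038-110333337) is shown as a window without a match to either. These 4 were chosen after their values were seen.
Hmgcs1: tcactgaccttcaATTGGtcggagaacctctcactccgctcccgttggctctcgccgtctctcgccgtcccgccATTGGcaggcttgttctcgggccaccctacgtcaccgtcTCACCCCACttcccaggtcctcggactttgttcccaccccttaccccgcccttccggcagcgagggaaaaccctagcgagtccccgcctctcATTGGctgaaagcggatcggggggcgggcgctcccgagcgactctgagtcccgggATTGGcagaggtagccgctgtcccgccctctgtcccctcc
Idi1: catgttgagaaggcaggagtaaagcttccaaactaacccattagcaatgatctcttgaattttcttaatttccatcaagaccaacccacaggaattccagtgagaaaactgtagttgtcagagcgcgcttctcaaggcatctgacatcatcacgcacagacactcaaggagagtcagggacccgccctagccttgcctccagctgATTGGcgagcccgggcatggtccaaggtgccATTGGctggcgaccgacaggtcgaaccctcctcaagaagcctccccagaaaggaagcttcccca
Mvk: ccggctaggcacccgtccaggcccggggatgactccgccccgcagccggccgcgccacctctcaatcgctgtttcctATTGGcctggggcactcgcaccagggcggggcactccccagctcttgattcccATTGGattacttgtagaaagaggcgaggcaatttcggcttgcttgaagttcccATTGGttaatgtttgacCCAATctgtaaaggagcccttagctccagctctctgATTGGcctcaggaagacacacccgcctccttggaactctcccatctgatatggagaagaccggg
Scap: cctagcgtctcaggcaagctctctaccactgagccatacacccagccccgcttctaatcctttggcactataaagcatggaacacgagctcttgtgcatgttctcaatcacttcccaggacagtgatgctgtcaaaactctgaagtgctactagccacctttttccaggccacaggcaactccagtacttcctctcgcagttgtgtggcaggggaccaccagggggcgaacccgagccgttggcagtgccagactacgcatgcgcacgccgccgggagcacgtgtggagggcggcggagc

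Of the 28 members, 24 had promoter windows in the table, 32 windows in all, since some genes have several starts. Fdps, Fdft1, Sqle and Stard4 had no entry. The sterol response element core lay in 1 member, Hmgcs1, where it begins at position -137 from the annotated start, and in 1.44% of the 27025 genes with a window. A stricter form, TCACCCCAC, lay in the same member and in 0.614% of genes. The NF-Y box was far more common, with a match in 41.1% of genes. It was found in 21 of the 24 members and in every one of the 15 measured sterol enzymes with a window, including Lbr, and in 15 of their 18 windows. It was found in 4 of 5 genes of the SREBP system, the exception being Scap, and in 2 of 3 of fatty acid synthesis, the exception being Acaca. Mvk held 5 NF-Y boxes in its window, Hmgcs1 held 4 and Idi1 held 2. The GC box, GGGCGG on either strand, which Sp1 binds, lay in 21 of 24 members and in 38.2% of all genes. The stricter form is contained in TCACNCCAC, while no other motif searched contains another. A match describes the letters of the window and not a bound site. Only exact matches to these letters were searched, so a window without a match may still hold a variant of the element.

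**Figure D1:**
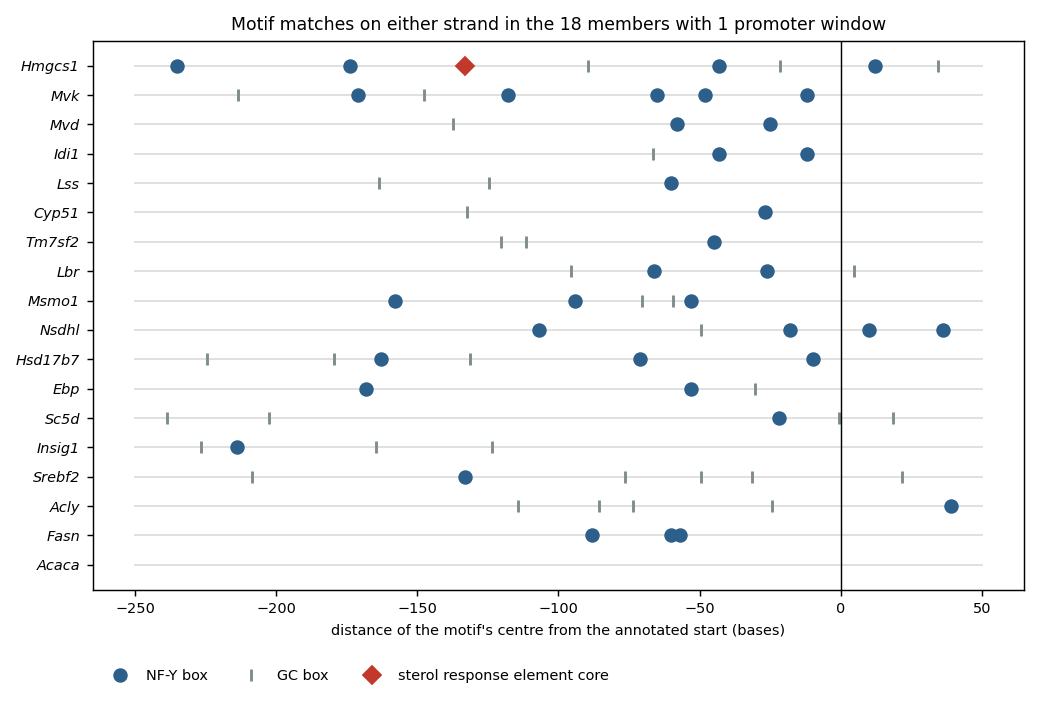
Positions of motif matches in the 18 measured members with a single promoter window, from 250 bases before to 50 bases after the annotated start (x axis, bases), with 1 row per gene. Circles are NF-Y boxes, ticks are GC boxes and the diamond is the sterol response element core, which appears once, in Hmgcs1. The row of Acaca holds no match.

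In ILK-deficient epidermis, transcripts of nearly all sterol enzymes lay somewhat below those of ILK-expressing epidermis, but 1 alone passed the test. Of the 18 measured sterol enzymes, 17 had a difference below 0, against 48.2% of all genes tested. Their median difference was -0.33, which is 79.8% of the ILK-expressing level, while the median over all genes was 0.01. The 95% interval lay below 0 for 11 of the 18 (an unadjusted p under 0.05), a share that was 7.21% among all genes. Fdps was called lower, as were 1.39% of all genes, and no sterol enzyme was called higher. Over all 27 members, 22 differences were below 0, 13 of them at an unadjusted p under 0.05, and the median was -0.25.

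Counted array by array, 82 of the 90 ILK-deficient values of these 18 enzymes lay below the ILK-expressing mean of their gene. In 14 of the 18 enzymes all 5 ILK-deficient arrays did so. Fdps, Idi1 and Mvk, 3 of the 27 members, had no overlap between genotypes, whereas 2.74% of all genes had ILK-deficient values all below the ILK-expressing ones. The enzymes are regulated together, so they are not separate pieces of evidence.

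**Figure D2:**
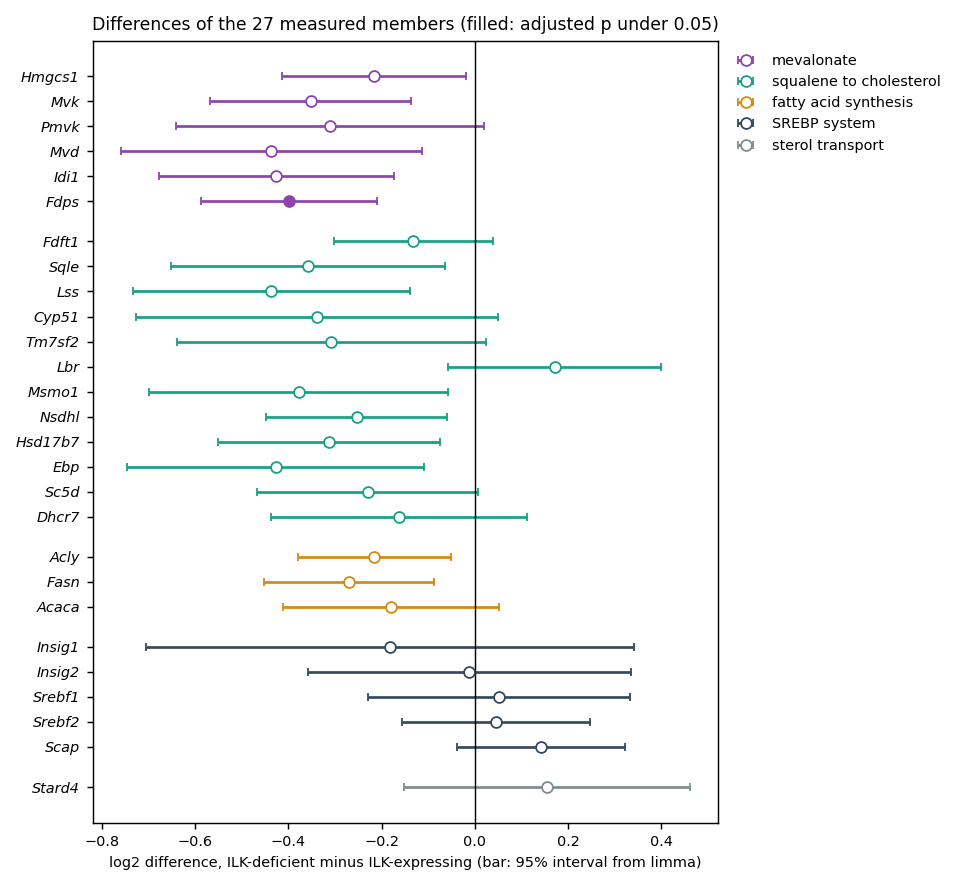
Log2 difference, ILK-deficient minus ILK-expressing (x axis), of the 27 measured members, 1 row per gene and grouped by role, with bars for the 95% interval from limma (n = 5 per genotype). The filled point, Fdps, is the member with an adjusted p under 0.05, and Lbr is the 1 sterol enzyme to the right of 0.

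The mevalonate branch turns acetyl-CoA units into farnesyl diphosphate, and its 6 measured enzymes had a median difference of -0.38, 77.1% of the ILK-expressing level. Fdps, which makes farnesyl diphosphate, the last compound before sterols and other isoprenoids part, had values of 9.84, 10.05, 9.93, 10.20 and 10.13 in ILK-deficient arrays 1 to 5, against 10.29, 10.33, 10.48, 10.51 and 10.54 in ILK-expressing arrays 1 to 5. Every ILK-deficient array was below every ILK-expressing one. Fdps was 24.1% lower in ILK-deficient epidermis, with a difference of -0.40 (standard error 0.0854, 95% interval -0.59 to -0.21, adjusted p = 0.0306 from limma, exact permutation p = 0.00794). The call is near the threshold. Its adjusted p ranged between 0.0122 and 0.219 over the alternatives run, and it was lost when ILK-deficient array 1, 2, 3 or 5 or ILK-expressing array 3, 4 or 5 was left out, with the difference staying between -0.44 and -0.35.

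Idi1, the isomerase that interconverts the 5-carbon isoprenoid units, measured 10.29, 10.73, 10.50, 10.94 and 10.76 in ILK-deficient arrays, against 11.07, 10.96, 11.18, 10.99 and 11.15 in ILK-expressing arrays. The genotypes did not overlap, though ILK-deficient array 4 and ILK-expressing array 2 came close to each other, and the ILK-deficient arrays were more spread. The difference was -0.43 (95% interval -0.68 to -0.17, adjusted p = 0.0716 from limma, exact permutation p = 0.00794), and another probe set of Idi1 gave -0.43 as well (adjusted p = 0.0517). Mvk, mevalonate kinase, whose promoter holds the 5 NF-Y boxes, measured 9.70, 9.99, 9.85, 9.82 and 10.00 in ILK-deficient arrays, against 10.12, 10.00, 10.46, 10.18 and 10.36 in ILK-expressing arrays. These also did not overlap, by a narrow margin between ILK-deficient array 5 and ILK-expressing array 2. Its difference was -0.35 (95% interval -0.57 to -0.14, adjusted p = 0.0808 from limma), which corresponds to 21.7% less transcript.

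Mvd, the decarboxylase that follows in the branch, measured 8.76, 8.65, 8.94, 8.79 and 9.07 in ILK-deficient arrays, against 9.09, 8.88, 9.47, 9.26 and 9.69 in ILK-expressing arrays. The difference of -0.44 had a wide interval, -0.76 to -0.11, and the groups overlapped through ILK-expressing array 2 (adjusted p = 0.148 from limma). Pmvk, phosphomevalonate kinase, averaged 8.18 ± 0.186 (SD) in ILK-deficient and 8.49 ± 0.317 in ILK-expressing epidermis (difference -0.31, adjusted p = 0.357). Hmgcs1, the HMG-CoA synthase of the cytosol and the member with the sterol response element core, measured 11.18, 11.14, 11.29, 11.51 and 11.43 in ILK-deficient arrays, against 11.43, 11.37, 11.61, 11.58 and 11.65 in ILK-expressing arrays. The ILK-deficient arrays 1 to 3 were below all ILK-expressing ones, and the other two fell among them. Its difference of -0.22 (95% interval -0.41 to -0.02, adjusted p = 0.256 from limma) was the smallest in size of the 6 mevalonate enzymes.

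**Figure D3:**
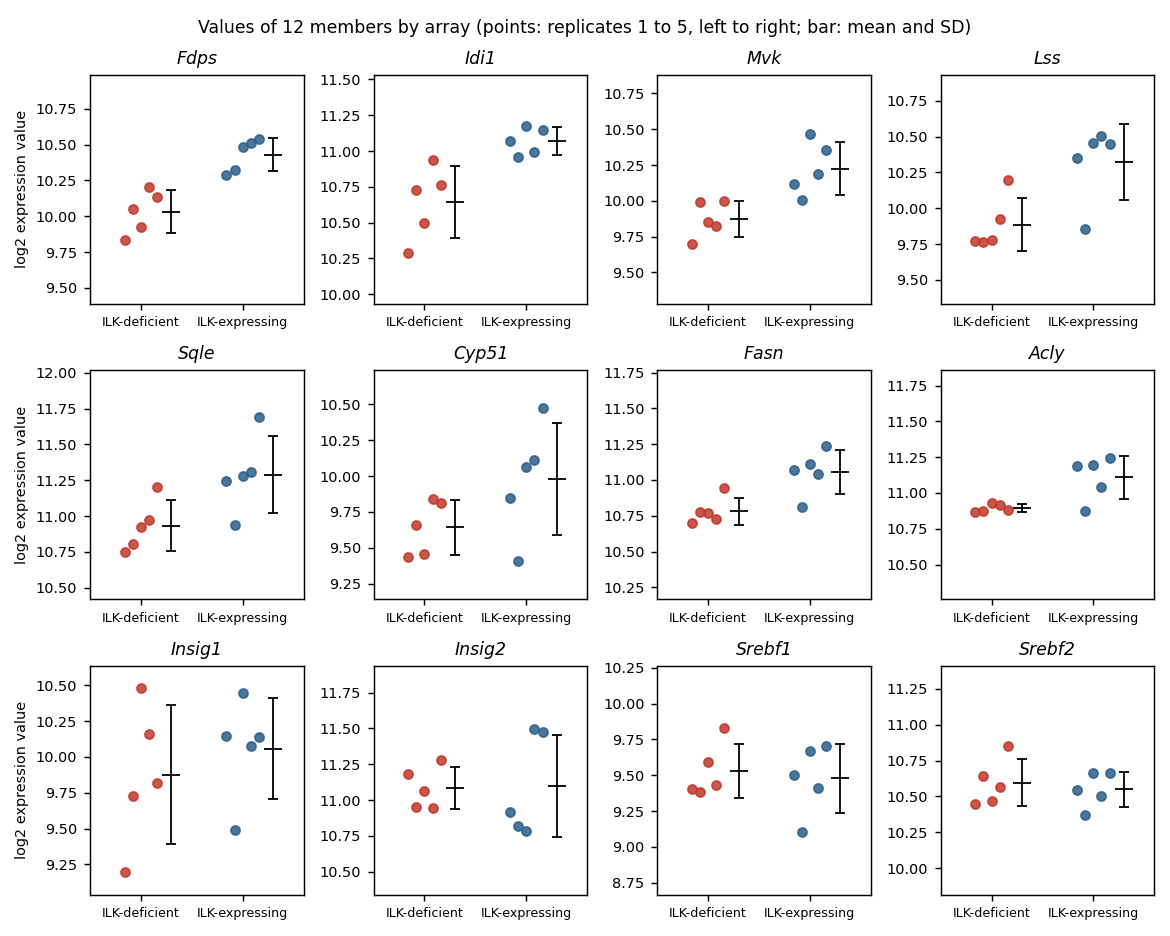
Log2 expression values (y axis, with its own range in each panel) of 12 members, 1 point per array, ILK-deficient arrays left of ILK-expressing arrays and replicates 1 to 5 in order, with a bar for the mean and SD. Fdps, Idi1 and Mvk show no overlap, Lss, Sqle, Cyp51, Fasn and Acly overlap through ILK-expressing array 2, and the Insig and Srebf genes overlap throughout.

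From squalene onwards, 11 of 12 enzymes had a difference below 0, with a median of -0.31 (80.6% of the ILK-expressing level), and none was called, with 6 lower at an unadjusted p under 0.05. Lss, which closes squalene epoxide into lanosterol, measured 9.77, 9.76, 9.78, 9.92 and 10.19 in ILK-deficient arrays, against 10.35, 9.85, 10.46, 10.50 and 10.45 in ILK-expressing arrays. ILK-expressing array 2 sat among the ILK-deficient arrays, and the other 4 were above all of them. The difference was -0.44 (95% interval -0.73 to -0.14, adjusted p = 0.114 from limma), 26.1% less transcript. Sqle, the squalene epoxidase ahead of it, measured 10.75, 10.80, 10.93, 10.98 and 11.21 in ILK-deficient arrays, against 11.24, 10.94, 11.28, 11.31 and 11.69 in ILK-expressing arrays. ILK-expressing array 2 was again the low one, and the difference was -0.36 (95% interval -0.65 to -0.06, adjusted p = 0.196 from limma).

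Ebp, a sterol isomerase, measured 9.22, 9.86, 9.17, 9.42 and 9.23 in ILK-deficient arrays, against 9.66, 9.71, 9.90, 9.65 and 10.13 in ILK-expressing arrays. Here 1 ILK-deficient array, replicate 2, made the overlap, and Ebp was called when that array was left out. With all arrays the difference was -0.43 (95% interval -0.75 to -0.11, adjusted p = 0.152 from limma). Cyp51, which removes a methyl group from lanosterol, measured 9.44, 9.66, 9.46, 9.84 and 9.81 in ILK-deficient arrays, against 9.84, 9.41, 10.06, 10.11 and 10.47 in ILK-expressing arrays, where array 2 had the lowest value of all 10. Its difference was -0.34, with an interval that spans 0 (-0.73 to 0.05, adjusted p = 0.406).

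Among the remaining enzymes of the chain, those of demethylation lay close together, with differences of -0.38 for the methyl oxidase Msmo1 (adjusted p = 0.215), -0.25 for the decarboxylating dehydrogenase Nsdhl (adjusted p = 0.163) and -0.31 for the ketoreductase Hsd17b7 (adjusted p = 0.161). The sterol desaturase Sc5d differed by -0.23 (adjusted p = 0.335) and Dhcr7, the reductase of 7-dehydrocholesterol, by -0.16 (adjusted p = 0.644). Fdft1, squalene synthase, had the smallest difference in size, -0.13 (adjusted p = 0.484), and -0.22 on another of its probe sets (adjusted p = 0.22).

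The sterol C14 reductase step has a pair of genes with that activity, and they had differences of opposite sign. Tm7sf2, the reductase of the endoplasmic reticulum, averaged 8.21 ± 0.239 (SD) in ILK-deficient and 8.52 ± 0.281 in ILK-expressing epidermis (difference -0.31, adjusted p = 0.365). Lbr, the lamin B receptor, which is also a protein of the inner nuclear membrane, measured 10.42, 10.36, 10.31, 10.58 and 10.33 in ILK-deficient arrays, against 10.20, 10.07, 9.99, 10.38 and 10.50 in ILK-expressing arrays. Apart from ILK-expressing arrays 4 and 5, the ILK-deficient arrays were the higher ones. Its difference was 0.17 (95% interval -0.06 to 0.40, adjusted p = 0.509 from limma), and the contrast between the pair was not tested.

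The 3 enzymes of fatty acid synthesis, targets mainly of SREBP-1, had a median difference of -0.22, and none was called, with 2 lower at an unadjusted p under 0.05. Fasn, fatty acid synthase, measured 10.70, 10.77, 10.77, 10.73 and 10.94 in ILK-deficient arrays, against 11.07, 10.81, 11.11, 11.04 and 11.23 in ILK-expressing arrays. ILK-deficient array 5 alone was above the lowest ILK-expressing array, replicate 2. The difference was -0.27 (95% interval -0.45 to -0.09, adjusted p = 0.111 from limma), 17.1% less transcript. Acly, which makes cytosolic acetyl-CoA from citrate and so feeds both pathways, measured 10.87, 10.87, 10.93, 10.92 and 10.88 in ILK-deficient arrays, against 11.19, 10.88, 11.20, 11.04 and 11.25 in ILK-expressing arrays. The ILK-deficient arrays were nearly level, with an SD of 0.028 against 0.151 in ILK-expressing arrays, and the difference was -0.22 (95% interval -0.38 to -0.05, adjusted p = 0.161 from limma). Acaca, acetyl-CoA carboxylase, differed by -0.18 (adjusted p = 0.487) on its brighter probe set and by 0.02 (adjusted p = 0.96) on another, so its probe sets disagree.

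The 5 genes of the SREBP system had differences spread about 0. None was called, none reached an unadjusted p under 0.05, 2 differences were below 0 and 3 above, and the median was 0.04. Srebf2, which encodes the SREBP that chiefly drives sterol synthesis, measured 10.45, 10.64, 10.47, 10.57 and 10.85 in ILK-deficient arrays, against 10.55, 10.37, 10.66, 10.50 and 10.67 in ILK-expressing arrays. The genotypes overlapped throughout (difference 0.04, 95% interval -0.16 to 0.25, adjusted p = 0.912 from limma). Srebf1, whose product acts more on fatty acid genes, measured 9.41, 9.38, 9.59, 9.43 and 9.83 in ILK-deficient arrays, against 9.50, 9.10, 9.67, 9.41 and 9.71 in ILK-expressing arrays. Here too the values were interleaved (difference 0.05, 95% interval -0.23 to 0.33, adjusted p = 0.931).

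Scap, the escort protein, measured 10.44, 10.51, 10.37, 10.27 and 10.58 in ILK-deficient arrays, against 10.19, 10.15, 10.47, 10.33 and 10.33 in ILK-expressing arrays (difference 0.14, 95% interval -0.04 to 0.32, adjusted p = 0.476 from limma). Insig1, itself a target of SREBPs, varied more than any other member within the ILK-deficient group, with 9.20, 9.73, 10.48, 10.16 and 9.82 in ILK-deficient arrays, against 10.14, 9.49, 10.45, 10.08 and 10.14 in ILK-expressing arrays. Its difference of -0.18 has an interval of -0.70 to 0.34 (adjusted p = 0.841), which also covers the median of the enzymes. Insig2 measured 11.18, 10.96, 11.06, 10.95 and 11.28 in ILK-deficient arrays, against 10.91, 10.82, 10.78, 11.49 and 11.48 in ILK-expressing arrays. ILK-expressing arrays 4 and 5 stood apart from the other 3, and the means were nearly equal (difference -0.01, 95% interval -0.36 to 0.33, adjusted p = 0.989).

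Transcripts of this system do not report how much SREBP is cleaved, and no measurement of the proteins was analysed here. Stard4, which carries cholesterol between membranes and is an SREBP target, measured 9.51, 9.48, 9.55, 9.56 and 9.82 in ILK-deficient arrays, against 9.49, 9.17, 9.49, 9.10 and 9.88 in ILK-expressing arrays (difference 0.15, adjusted p = 0.716 from limma). No test of the enzymes against these 6 genes was made.

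The replicates of a genotype differed among themselves in the same direction across many enzymes. ILK-expressing array 2 was the lowest of its group in 14 of the 18 sterol enzymes, and array 5 the highest in 13. Among ILK-deficient arrays, array 1 was the lowest in 8 and array 5 the highest in 9. Expressed as the median deviation of the 18 enzymes from their 10-array mean, ILK-deficient arrays 1 to 5 lay at -0.33, -0.15, -0.13, -0.13 and 0.01, against 0.03, -0.11, 0.23, 0.15 and 0.36 in ILK-expressing arrays 1 to 5. ILK-expressing array 2 therefore lay among the ILK-deficient arrays, and ILK-deficient array 5 beside ILK-expressing array 1. Without ILK-expressing array 2 the median difference of the enzymes was -0.39, and 16 of the 18 were lower at an unadjusted p under 0.05. Without ILK-expressing array 5 it was -0.25, with 9 of 18. ILK-expressing arrays 2 and 5 had the lowest limma array quality weights of all 10 arrays, 0.583 and 0.524. With these weights in the fit, 12 of the 18 were lower at an unadjusted p under 0.05.

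Array 2 was also the lowest ILK-expressing array for Insig1, Srebf1, Srebf2 and Scap. The median deviation of the SREBP system was -0.10, -0.12, 0.01, -0.07 and 0.22 in ILK-deficient arrays, against -0.03, -0.27, 0.11, -0.04 and 0.17 in ILK-expressing arrays. For fatty acid synthesis it was -0.13, -0.14, -0.15, -0.19 and 0.02 in ILK-deficient arrays, against 0.18, -0.13, 0.19, 0.06 and 0.24 in ILK-expressing arrays, so that ILK-expressing array 2 was low here as well. The descriptions of the arrays carry a letter prefix whose meaning is not stated. It is D' for ILK-expressing array 4 and ILK-deficient array 5, C' for ILK-expressing array 5 alone, and D for the rest. ILK-expressing arrays 4 and 5 also had the highest hair shaft and sebocyte levels, so within that genotype these levels and the prefix cannot be told apart. ILK-deficient array 5, which shares prefix D', had median deviations of -1.71 for hair shaft and -0.14 for sebocyte markers. With the prefix as a block, ILK-expressing array 5 does not enter the difference, and the median difference of the sterol enzymes was -0.25. Over the 4 ILK-deficient and 3 ILK-expressing arrays of prefix D it was -0.28. Fdps differed by -0.36 in both and was called in neither (adjusted p = 0.0681 with the block and 0.219 within prefix D, from limma).

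**Figure D4:**
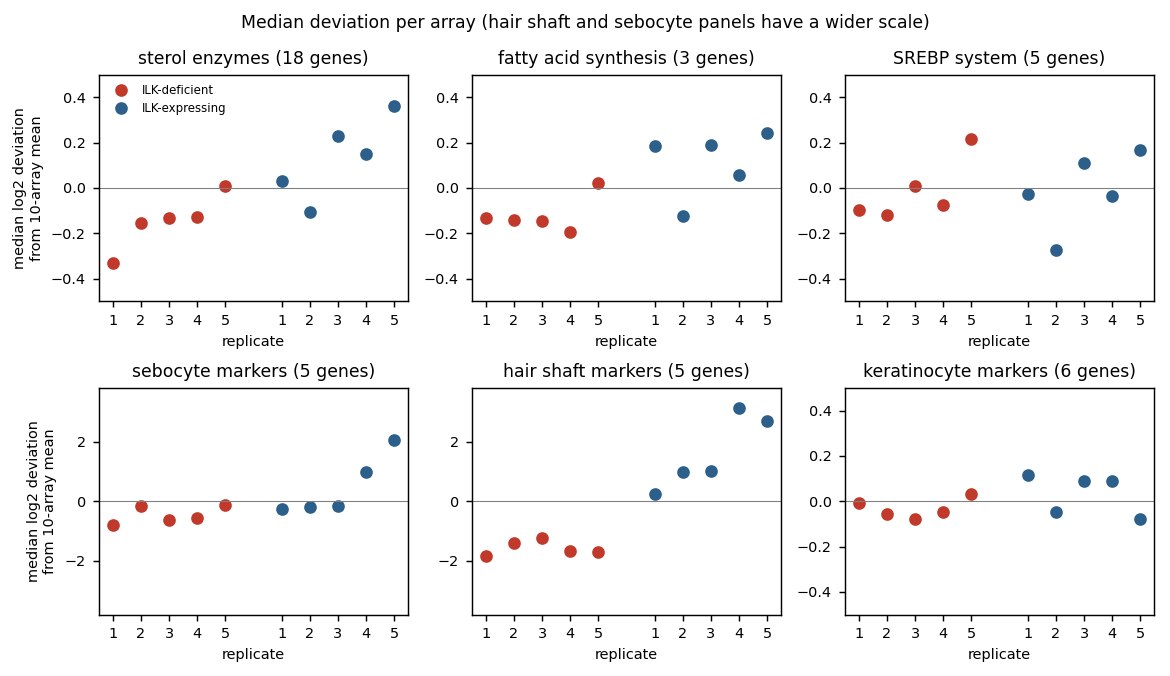
Median log2 deviation of each array from the 10-array mean (y axis) for 6 groups of genes, ILK-deficient replicates 1 to 5 left of ILK-expressing replicates 1 to 5, with a wider scale in the sebocyte and hair shaft panels. The sterol enzymes of ILK-expressing array 2 (-0.11) lie among the ILK-deficient arrays, and hair shaft markers separate the genotypes without overlap.

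Markers of other cells of the skin differed by genotype as well, in both directions. All 7 inner root sheath markers and 4 of 5 hair shaft markers were called lower, with summed linear levels of the hair shaft markers of 579 to 988 in ILK-deficient arrays and 3139 to 20107 in ILK-expressing arrays. Of 6 sebocyte markers, Mogat2 was below the level for testing on all arrays, and the other 5 had differences below 0, none called, with summed levels of 420 to 711 in ILK-deficient arrays and 773 to 3507 in ILK-expressing arrays. Elovl3, a fatty acid elongase of sebaceous glands, measured 5.89, 7.37, 5.94, 6.88 and 7.79 in ILK-deficient arrays, against 8.25, 8.44, 8.03, 10.47 and 10.25 in ILK-expressing arrays (difference -2.31, adjusted p = 0.0508 from limma). Mc5r, a melanocortin receptor of sebocytes, did not overlap either (difference -2.13, adjusted p = 0.0537). Over the 21 alternatives, Elovl3 was called in 7 and Mc5r in 5.

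Melanocyte markers went the other way. All 5 had differences above 0, with a median of 1.28. Their summed levels were 6737 to 12486 in ILK-deficient arrays and 1789 to 4576 in ILK-expressing arrays. Of the 5, 4 were called higher, as were 800 of the 18121 genes tested. These 4 were Sox10, the transcription factor of the lineage (difference 0.69, adjusted p = 0.00569 from limma), Mitf (0.81, adjusted p = 0.0335) and the pigment genes Dct (1.53, adjusted p = 0.0313) and Pmel (1.28, adjusted p = 0.0312), while Tyrp1, at 2.23, did not pass (adjusted p = 0.0511). Sox10 was called in 20 of 21 alternatives, Dct in 12, Mitf in 11 and Pmel in 10. Mitf has 2 probe sets, and with these averaged its difference was 0.36 and not called (adjusted p = 0.0758 from limma). Of 6 immune markers, Lyz2, a lysozyme of myeloid cells, was called higher (difference 0.45, adjusted p = 0.0375 from limma). Its values were low, 5.88 to 6.17 in ILK-expressing arrays, and requiring a linear value of 100 instead of 50 left Lyz2 untested. It kept the call when ILK-deficient array 5 was left out and lost it when any other single array was. The other 5 were not called, with Cd207 and H2-Ab1 below 0 and Ptprc, Cd3e and Cd3g above. The part of these cells in the enzymes' difference was not tested.

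ILK-expressing arrays 4 and 5 carried the highest sebocyte and hair shaft levels, with median deviations of 0.98 and 2.05 for sebocyte markers. For the sterol enzymes the highest were ILK-expressing arrays 5 and 3, at 0.36 and 0.23, and array 3 was at -0.15 for sebocyte markers. Without ILK-expressing array 4 the median difference of the sterol enzymes was -0.35, and without array 5, the highest for both sebocyte markers and sterol enzymes, it was -0.25. The part of hair follicle and sebaceous cells in the enzymes' difference was not tested. Of 6 keratinocyte markers, the basal keratin Krt14 was called lower (difference -0.23, adjusted p = 0.0452 from limma) and the epidermal transcription factor Trp63 higher (0.35, adjusted p = 0.0204). Krt14 lost its call in 9 of the 10 settings that leave out an array, all but that without ILK-expressing array 5, and Trp63 lost its call without ILK-deficient array 1, 2 or 5 or ILK-expressing array 4. Neither was called with the label prefix as a block. The 6 keratinocyte markers' summed levels lay between 68114 and 73934 in ILK-deficient arrays and between 70836 and 78600 in ILK-expressing arrays, so the defining keratins of the labelled tissue were abundant on every array. The 6 fibroblast markers had differences above 0, none called, with sums of 3598 to 6623 in ILK-deficient and 1537 to 5503 in ILK-expressing arrays. Dcn made the largest part of every sum (difference 0.77, adjusted p = 0.467 from limma). It was lowest in ILK-expressing array 4, at 9.74.

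Other SREBP targets outside the group, 13 tested of 14 listed, had a median difference of -0.29, with 10 below 0. Among them 1 was called lower and 1 higher. Of all 18121 genes tested, 1.39% were called lower and 800 were called higher. Scd2, a stearoyl-CoA desaturase, fell to 11.49, 11.60, 11.23, 11.75 and 12.02 in ILK-deficient arrays, against 12.26, 12.18, 12.35, 12.36 and 12.36 in ILK-expressing arrays. The ILK-expressing arrays were nearly level and all above the ILK-deficient ones (difference -0.69, standard error 0.127, adjusted p = 0.0168 from limma). Lpin1, a phosphatidate phosphatase of triglyceride synthesis, rose to 7.14, 7.10, 7.05, 7.09 and 7.27 in ILK-deficient arrays, against 6.78, 6.70, 6.76, 6.61 and 6.73 in ILK-expressing arrays. It was thus called in the opposite direction, without overlap (difference 0.42, standard error 0.0608, adjusted p = 0.00648).

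Among the uncalled targets, the elongase Elovl6 differed by -0.43 (adjusted p = 0.134) and the lysosomal sterol exporter Npc1 by 0.08 (adjusted p = 0.831). Tmem97, a membrane protein that binds Npc1 and was named after its values were seen, measured 9.52, 9.82, 9.26, 9.92 and 9.81 in ILK-deficient arrays, against 9.96, 9.95, 10.38, 10.36 and 10.67 in ILK-expressing arrays. The genotypes did not overlap, but the difference of -0.60 did not pass (adjusted p = 0.0825 from limma).

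Genes that process SREBPs or turn over sterol-regulated proteins, 8 tested of 11 listed, were spread about 0, with 4 differences below and 4 above and a median of 0.02. Mbtps1, which encodes the protease that makes the first cut in SREBP precursors, measured 11.20, 11.29, 11.27, 11.28 and 11.48 in ILK-deficient arrays, against 11.10, 10.77, 11.15, 10.97 and 11.06 in ILK-expressing arrays. All ILK-deficient arrays were the higher ones, with a difference of 0.30 that did not pass (adjusted p = 0.0877 from limma). Genes of side branches and electron supply, 6 tested of 8, had a median of -0.04, and Erg28, a scaffold of the demethylation enzymes, differed by -0.19 (adjusted p = 0.423).

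Genes of sterol efflux, ester and sulfate formation, 8 tested of 12, had 6 differences above 0 and 2 below, a median of 0.10 and none called (2 lower and 2 higher at an unadjusted p under 0.05). Abca1, which exports cholesterol and is a target of the sterol-sensing LXR receptors, was named after its values were seen. It measured 8.99, 8.94, 9.75, 8.83 and 9.66 in ILK-deficient arrays, against 7.98, 8.01, 7.82, 8.92 and 8.80 in ILK-expressing arrays. ILK-expressing array 4 fell within the ILK-deficient range and array 5 just below it, and the difference of 0.93 (95% interval 0.34 to 1.51) did not pass (adjusted p = 0.092 from limma, exact permutation p = 0.0159). Sult2b1, which makes the cholesterol sulfate of the stratum corneum, differed by -0.25 (adjusted p = 0.182).

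Of 18 tested genes of barrier lipids other than sterols, those of ceramide synthesis and fatty acid elongation, all had a difference below 0, 4 at an unadjusted p under 0.05, none was called, and the median was -0.19 (87.6% of the ILK-expressing level). The differences were uneven in size, and the 2 farthest from 0, singled out after the values were known, were -1.14 for the fatty acid hydroxylase Fa2h (adjusted p = 0.403) and -0.70 for the ceramide synthase Cers4 (adjusted p = 0.46). ILK-expressing arrays 4 and 5 were the highest, at 9.84 and 10.51 for Fa2h and 9.17 and 9.82 for Cers4. ILK-expressing arrays 1 to 3 lay within the ILK-deficient range for both genes. Elovl4, which makes the very long chains of epidermal ceramides, differed by -0.16 (adjusted p = 0.259 from limma). The sterol enzymes were not tested against these genes.

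**Figure D5:**
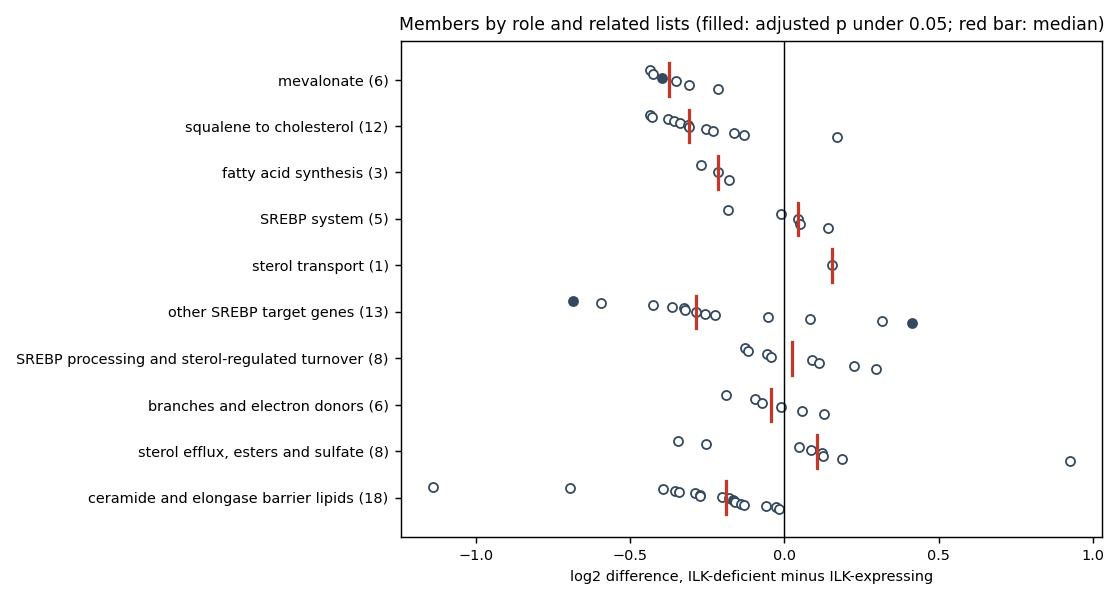
Log2 difference, ILK-deficient minus ILK-expressing (x axis), of each tested gene in 10 lists (rows, with the number of genes), with a bar at the list's median and filled points for an adjusted p under 0.05. Medians are -0.38 for mevalonate enzymes, -0.31 from squalene to cholesterol, 0.04 for the SREBP system and -0.19 for ceramide and elongase genes.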

How the data were processed

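RNA of epidermis from 10 mice was measured on Affymetrix GeneChip Mouse Gene ST arrays, 1 per mouse. The deposited table holds log2 values per probe set. The authors' methods describe background adjustment and quantile normalization and name RMA and GC-RMA. Which of these made the table is not given in the sources used here. Array medians ran from 7.07 to 7.17 and array maxima from 14.7 to 16.7, so the deposited arrays do not share 1 distribution. The number of arrays limits the precision.

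Groups came from the sample labels. The members and lists were chosen with earlier results of these data known. Testing required a linear value of at least 50 on 5 of the 10 arrays or more, which left 32046 of 35556 probe sets. Genes were named from probe sets with 1 symbol in the platform annotation (21789, with 1621 carrying several and 12146 none), taking the probe set with the highest mean. Genotypes were compared in R 4.3.3 with limma 3.58.1 (lmFit, eBayes, no block). Exact permutation tests (scipy 1.17.1) ran over the 252 divisions of the arrays into 5 and 5. The comparison was tested on simulated data. Named genes were all members, Ilk, and from each list up to 4 called genes with the largest difference and up to 2 abundant uncalled ones. The rule for sequences, called members first, could not be met because the called member had no promoter entry. Alternatives changed the filter, scaling, variance model, array weights, test, block, probe sets per gene and arrays.

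Across all tested probe sets, same-numbered arrays did not deviate together. The replicate numbers were used as pairs only in an alternative with the number as a block.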

Additional observations from a re-analysis of the deposited data

Results flagged for a closer look

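In 7 of the 110 gene and genotype groups examined, 1 array lay far from the other 4, with a gap over 0.71 of the group's range, and chance alone marks about 1 in 20 groups. Fdft1, squalene synthase, stood at 12.33 in ILK-deficient array 5, against 12.11 to 12.17 in the other ILK-deficient arrays. Stard4, the sterol carrier, stood at 9.82 in the same array, against 9.48 to 9.56 in the others. Lss, lanosterol synthase, stood at 9.85 in ILK-expressing array 2, against 10.35 to 10.50 in the other ILK-expressing arrays. The fibroblast collagen gene Col1a2 stood at 7.23 in ILK-expressing array 5, against 7.70 to 7.75 in the others. In ILK-expressing array 1, 3 melanocyte genes were low. Dct stood at 9.13, against 10.51 to 10.89 in the other ILK-expressing arrays, Tyrp1 at 6.84, against 9.38 to 9.73, and Pmel at 8.65, against 9.51 to 9.67.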

How the results depend on the processing

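In each of the 21 alternatives, 17 of the 18 sterol enzymes had a difference below 0, and their median difference stayed between -0.39 and -0.25, also when single arrays were left out. Calls were less stable. The 1 called member became 4 after quantile normalization again, 3 with a gene's probe sets averaged and 0 with an analysis of variance. The count was 0 with the label prefix as a block, 0 over prefix D alone and between 0 and 4 without single arrays. The methods also name an analysis of variance, but with a fold-change threshold and without mention of adjusted p-values. Its counts here are therefore not the authors' own. Leaving out ILK-expressing array 2 gave 4 (Acly, Fasn, Fdps and Lss), leaving out ILK-deficient array 4 gave 2, and leaving out ILK-deficient array 2 gave Ebp alone. Sterol enzymes lower at an unadjusted p under 0.05 numbered 11, against 15 after quantile normalization again and 11 with the analysis of variance. They numbered 10 with the prefix as a block, 7 over prefix D and 8 to 16 when single arrays were left out. The 1211 called probe sets became 686 with the analysis of variance, 294 over prefix D and 597 to 1010 without single arrays. The 2 called genes of the related lists became 5 after quantile normalization again, 7 with a gene's probe sets averaged, 1 over prefix D, where Lpin1 was lost (adjusted p = 0.0747 from limma), and 2 to 3 without single arrays.

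With the replicate number as a block, 608 probe sets were called and Fdps stayed the 1 called member. With that block 14 sterol enzymes were lower at an unadjusted p under 0.05, against 11 without it. Correlations of same-numbered arrays over all tested probe sets ran from -0.30 to 0.11. They were not computed for the sterol enzymes alone, so a pairing by number in these genes was not tested.

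Differences near 0 changed sign. Insig2 gave 0.053 with array quality weights, 0.11 with the label prefix as a block and 0.20 over prefix D and, without single arrays, between -0.090 and 0.088. Without single arrays, Srebf1 ran from -0.043 (without ILK-expressing array 2) to 0.11 and Srebf2 from -0.020 (without ILK-deficient array 5) to 0.082. The causes were not tested. The standard error of a sterol enzyme's difference had a median of 0.119, which limits what 5 arrays per genotype can resolve.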
